A study of Mus musculus with 2 samples.

Results

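Fibronectin (gene Fn1), the integrin beta 1 subunit (Itgb1) and CD44 (Cd44) were examined for peaks in chromatin immunoprecipitation with sequencing (ChIP-seq) against the zinc finger transcription factor KLF4. A peak belonged to a gene when its midpoint lay in the gene's span, or within 10 kb of it, as NCBI RefSeq gives the spans for GRCm38.p6. By this rule 14 of the 2251 WT peaks and 0 of the 1153 KO peaks belonged to the 3 genes. The genes were chosen from earlier results on the same peak lists, selected on carrying WT peaks. Their peak counts and scores are therefore a description and no test was made on them.

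The material was frozen BCA tissue, described in the labels as an atherosclerotic lesion with smooth muscle, epithelial, macrophage and other cells together. Both groups were C57BL/6 mice on a Western diet, and the antibody was against GKLF, another name of KLF4. The WT group and the KO group each had 1 library. The labels give no age, no number of animals, no deleted gene and no cell type of deletion, while the title of the series mentions KLF4 and SMCs, smooth muscle cells. No difference between the lists has a replicate check, and the depth of both libraries is unknown because the lists hold no read counts.

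Fibronectin is a secreted glycoprotein that cells assemble into fibrils of the extracellular matrix. Integrins, each a pair of an alpha and a beta chain, hold cells to that matrix, and the beta 1 chain is part of the main fibronectin receptor, integrin alpha 5 beta 1. CD44 is best known as the receptor for hyaluronan and can also bind fibronectin. In atherosclerosis, smooth muscle cells that leave the contractile state are known to secrete matrix, and KLF4 is known as a regulator of that change.

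The promoters of the receptor genes are shown because the called peaks lay outside them. Each sequence runs 5′ to 3′ on the gene's own strand, from 250 bases before the gene start to 50 after it, and comes from RefSeq (GRCm38.p6), whose promoter table matched 2 of the 3 genes, Itgb1 and Cd44. The Itgb1 window is chr8:128685404-128685703 on the plus strand and the Cd44 window is chr2:102901616-102901915 on the minus strand. Capitals mark CACCC, the short motif that KLF factors are known to recognise, searched on both strands.
Itgb1: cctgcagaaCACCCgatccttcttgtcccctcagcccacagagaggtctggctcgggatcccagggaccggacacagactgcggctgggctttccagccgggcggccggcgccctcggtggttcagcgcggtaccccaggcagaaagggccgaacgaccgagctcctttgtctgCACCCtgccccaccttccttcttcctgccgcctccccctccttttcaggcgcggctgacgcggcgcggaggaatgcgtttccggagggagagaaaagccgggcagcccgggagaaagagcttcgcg
Cd44: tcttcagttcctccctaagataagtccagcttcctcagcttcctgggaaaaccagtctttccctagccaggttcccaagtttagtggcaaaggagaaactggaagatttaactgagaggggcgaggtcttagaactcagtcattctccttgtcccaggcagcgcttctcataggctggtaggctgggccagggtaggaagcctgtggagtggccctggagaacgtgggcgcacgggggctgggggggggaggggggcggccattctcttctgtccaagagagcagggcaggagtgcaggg

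The Itgb1 window held 2 matches to CACCC, starting 241 and 76 bases before the gene start, and the Cd44 window held none. Of all 32851 promoter windows of this length, 57.5% held CACCC on either strand. The longer motif CCACNCCC, which contains CACCC when N is A or C, occurred in 17.6% of the windows and in neither of these. A match is a run of letters and not a bound site. The nearest WT peak lay 21.4 kb from the Itgb1 window and 72.1 kb from the Cd44 window, and the nearest KO peak 2906.3 kb and 672.0 kb away. Across all protein-coding genes in the promoter table, 23 of 17492 (0.131%) had a WT peak on the window and 3 (0.0172%) had a KO peak.

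Fn1, the ligand, carried 9 WT peaks and no KO peak, all 9 inside its span on chromosome 1, 71585473 to 71653280 (67.8 kb). Of 21887 protein-coding genes, 5 (0.0228%) had 9 or more WT peaks. The other 4, named after their values were seen, were Sfi1 with 12, Col1a1 with 11, Eif4g2 with 10 and Myh9 with 9. Of these 5 genes, Fn1 had the highest top score, and Sfi1 was the one with KO peaks, 7 of them. For comparison, 6.22% of protein-coding genes had any WT peak by the same rule, 2.34% had any KO peak, and 5.51% had a WT peak and no KO peak. All 3 genes have spans of 30 to 100 kb, and among the 5077 genes of that length class a WT peak was found for 7.17% and a KO peak for 2.86%.

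The deposited score was taken to be 10 times the negative log10 of a p-value, so it ranks peaks within a list and measures no level of KLF4. The 2 highest Fn1 peaks lay at 71603612 to 71603968 (score 1720, width 357 bp) and 71613762 to 71614059 (1629, 298 bp). They ranked 17 and 21 in the WT list. The third, at 71597532 to 71597826 (675.4, 295 bp), ranked 67. Of the 21 highest WT peaks, 18 overlapped a KO peak, and 2 of the 3 that did not were in Fn1. Of the 67 highest, 9 had no KO overlap and 3 of those were in Fn1. Both cutoffs, 21 and 67, are the ranks of Fn1 peaks themselves, so each count ends on an Fn1 peak by construction. These counts cover the top of the list only, and the overlap share over all 2251 WT peaks is not given here. By gene, a lack of KO peaks was common, at 1206 of the 1362 protein-coding genes with a WT peak.

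The remaining 6 Fn1 peaks scored between 85.6 and 198.8, against a WT list median of 88.3. In order of coordinate, the peak at 71585535 to 71585737 scored 126.2 and was 203 bp wide. A peak at 71597302 to 71597446 scored 160.6 (145 bp), and one at 71615294 to 71615579 scored 87.0 (286 bp). Near the upper end of the gene, peaks at 71640307 to 71640510, 71642966 to 71643138 and 71650582 to 71650700 scored 180.4, 85.6 and 198.8, with widths of 204, 173 and 119 bp. The highest Fn1 score was thus 20.1 times the lowest, and 7 of the 9 peaks scored above the list median.

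**Figure D1:**
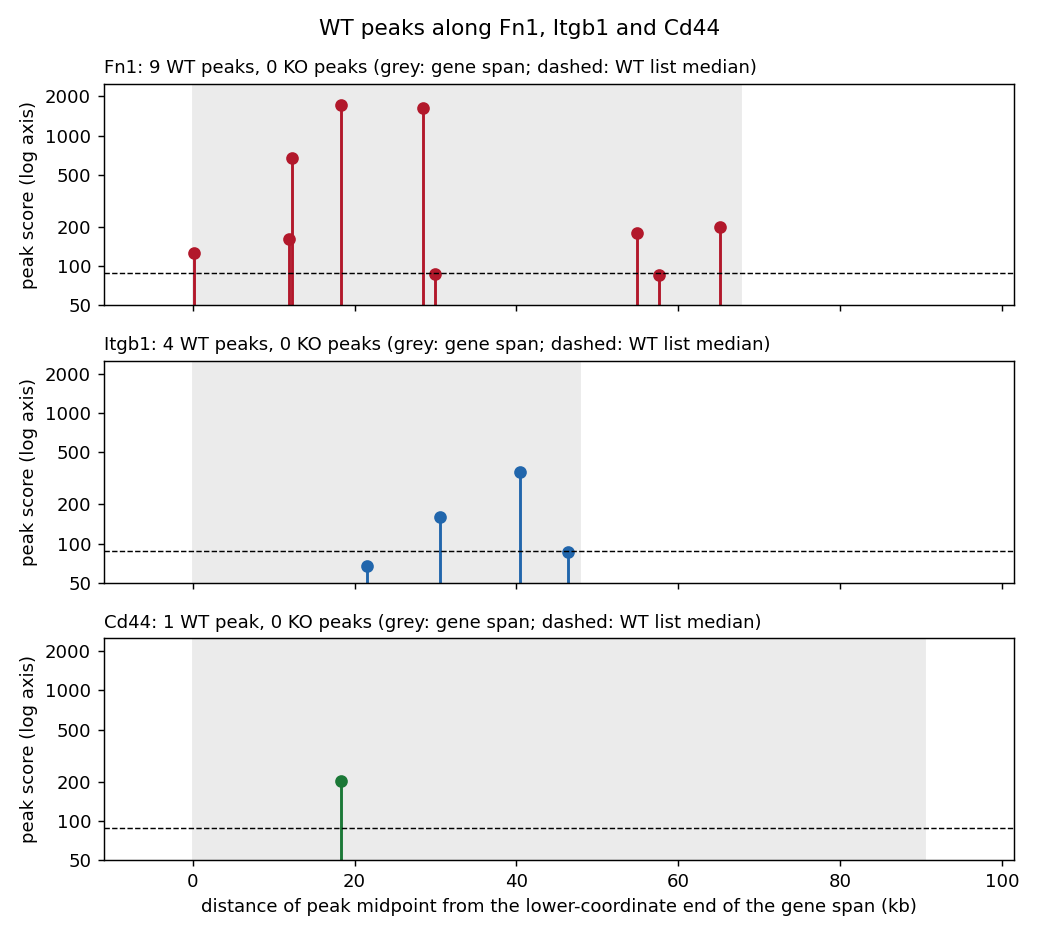
WT peaks along the 3 genes, with the distance of each peak's midpoint from the lower-coordinate end of the span (kb) on the x axis and its score on a log y axis. Points and stems are single peaks of 1 library, the grey band is the gene span and the dashed line the WT list median of 88.3; Fn1 has 9 peaks spread over its span, Itgb1 has 4 and Cd44 has 1, and no KO peak was called in any of the 3 windows.

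The Fn1 peaks were spread over most of the gene. From the first to the last they covered 65.2 kb, which is 96.1% of the span, while the peaks themselves took up 2080 bp, or 3.07% of it. The gaps between neighbours ran from 85 bp to 24727 bp with a median of 6614 bp. The closest pair lay about 12 kb from the lower-coordinate end, where the peak of score 675.4 had the peak of score 160.6 beside it. The peak of score 1629 likewise had a lower-scoring neighbour, of score 87.0, after a gap of 1234 bp. The widest gap lay across the middle of the gene, with 6 peaks on the lower-coordinate side and 3 on the upper side.

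The 3 highest-scoring Fn1 peaks lay below the middle of the gene, 12.21, 18.32 and 28.44 kb from the lower-coordinate end. Fn1 is known to be transcribed towards lower coordinates, so this is the downstream part of the gene. The outermost peaks lay 0.16 kb from the lower end and 2.64 kb from the upper end. The RefSeq table holds spans without exons, so no peak was assigned to an exon, an intron or a UTR. The midpoint of no Fn1 peak lay in the span of another annotated gene. Beyond the 10 kb window the nearest WT peaks were far off, 6591.0 kb below the span and 1058.5 kb above it, the latter in Rpl37a. The nearest KO peak lay 1510.5 kb above the span and scored 53.5.

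Itgb1, the receptor chain, carried 4 WT peaks and no KO peak in its span on chromosome 8, 128685654 to 128733579 (47.9 kb). Of all protein-coding genes 76 (0.347%) had 4 or more WT peaks, and in the length class of 30 to 100 kb this was 0.473%. The highest Itgb1 peak lay at 128726105 to 128726206, scored 354.8 and ranked 169 in the WT list. A peak at 128716110 to 128716254 scored 159.6. The other 2, at 128707075 to 128707210 and 128732021 to 128732157, scored 67.0 and 86.0, both below the list median. The Itgb1 peaks thus scored below the 3 leading Fn1 peaks, and their top score was 5.3 times their lowest.

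The Itgb1 peaks lay towards the downstream end. Their gaps were 8899, 9850 and 5814 bp. Their midpoints lay 21.49, 30.53, 40.5 and 46.44 kb from the gene start, or 44.8%, 63.7%, 84.5% and 96.9% of the way along the gene. No peak was called in the first 21 kb of the gene. The nearest peak of either list outside the window lay 2906.5 kb below the span, in Pcnx2, where a WT peak of score 291.0 and a KO peak of score 145.8 sat at the same place. No peak of either list lay at a higher coordinate on the chromosome.

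Cd44, the hyaluronan receptor, carried 1 WT peak and no KO peak in its span on chromosome 2, 102811141 to 102901669 (90.5 kb). The peak, at 102829370 to 102829501, scored 202.5 and ranked 359 in the WT list, above 84.1% of its peaks. It lay 72.23 kb from the gene start, 79.8% of the way along. Of the 964 protein-coding genes with a single WT peak, 90.8% had a lower score, and the median of that group was 82.6. The nearest WT peaks outside the window were 2184.4 kb below and 865.0 kb above the span, the latter in Caprin1. The nearest KO peak lay 581.5 kb below and scored 56.4.

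The 3 genes differed in how densely they carried peaks. Fn1 had 1.33 WT peaks per 10 kb of span, Itgb1 0.835 and Cd44 0.11, although Cd44 has the longest span. By top score among the 1362 genes with a WT peak, Fn1 took place 8, Itgb1 place 100 and Cd44 place 236. All 7 genes above Fn1 had a KO peak in their windows, whereas 1206 of the 1362 genes had none. Windows of neighbouring genes can share a peak, so these 7 genes need not be separate places. Position along the gene was read for the 15137 protein-coding genes whose start in the promoter table lay near an end of the span. In WT, 66.0% of 868 placements of a peak in such a span fell in the downstream 50% of the gene, and in KO 55.2% of 232. For Itgb1 3 of 4 peaks and for Cd44 the only peak were in the downstream 50%. Fn1, with no entry in the promoter table, was not read this way, and 6 of its 9 peaks lay in the lower-coordinate 50%. These are too few peaks to compare with the share of the WT list.

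The Fn1 peaks were mostly wider than those of the receptor genes, though the ranges overlapped. Their widths ran from 119 to 357 bp with a median of 204 bp, with 7 of 9 peaks wider than the WT list median of 156 bp. The 4 Itgb1 peaks were 102 to 145 bp wide and the Cd44 peak 132 bp, all narrower than that median. The highest-scoring Itgb1 peak was the narrowest of its 4, at 102 bp, while the highest-scoring Fn1 peak was the widest of its 9. Spearman's rho between score and width was 0.58 over the 9 Fn1 peaks and 0.3 over the 14 peaks of the 3 genes. Over the 2251 peaks of the WT list it was 0.2. The peaks share 1 library and 1 call, and score and width come from the same reads, so these are descriptions.

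**Figure D2:**
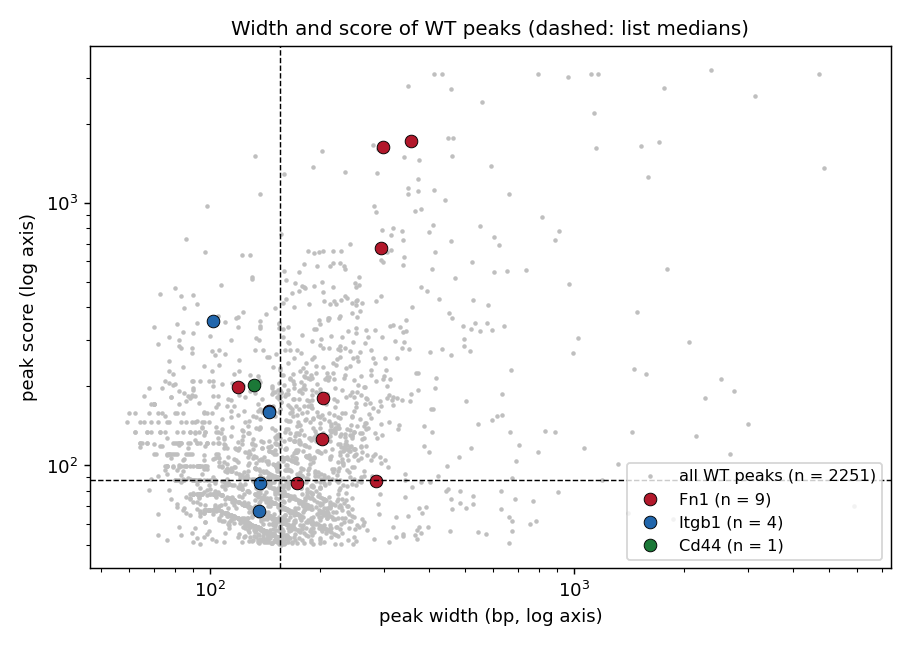
Peak width (bp, log x axis) and score (log y axis) of every WT peak in grey, with the peaks of Fn1, Itgb1 and Cd44 in colour and the list medians (156 bp and 88.3) dashed. The 3 highest-scoring Fn1 peaks lie at 295 to 357 bp, to the right of the median width, and all Itgb1 and Cd44 peaks lie to its left; 1 Fn1 peak and 1 Itgb1 peak of 145 bp overlap at scores near 160.

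Fn1 and Itgb1 were set beside the other 74 genes with 4 or more WT peaks. The median gap between the peaks counted for a gene had a median of 1169.5 bp over those 74, compared with 6614 bp in Fn1 and 8899 bp in Itgb1. Of the 74, 4 had a wider median gap than Itgb1 and 6 a wider one than Fn1. Col3a1 (10533 bp) and Acly (9149 bp) were among them, so wide spacing was not particular to Fn1 and Itgb1. Both spans were also longer than the median of 25.25 kb over the 74. A lack of KO peaks was common among them, at 62 of 74 genes (83.8%). It was also common among all protein-coding genes with a WT peak, at 1206 of 1362. Windows of neighbouring genes can share peaks, so these genes are not independent. For some of the 74, every counted peak lay in the window and outside the gene's own span.

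The genes most like each of the 3 were found among the 1362 genes with a WT peak, by the distance over 3 standardised measures. The measures were the log2 number of WT peaks, the log2 top score and the log2 number of peaks per 10 kb of span plus window. For Itgb1 the nearest genes were Col3a1 (4 peaks, top score 330.9, distance 0.19), Col1a2 (4, 368.4, 0.21) and Acly (4, 300.01, 0.25). Col3a1 and Col1a2 encode chains of fibrillar collagens and Acly encodes ATP citrate lyase. For Fn1 the nearest genes were farther off, Pabpc1 (8 peaks, top score 655.8, distance 1.64), Col1a1 (11, 763.6, 1.65) and Gnas (6, 484.9, 2.03). None of these 6 genes had a KO peak, which was also so for 1206 of the 1362 genes. For Cd44 they were Lima1 (1 peak, 209.9, distance 0.08), Inpp5f (1, 191.1, 0.1) and Wasf3 (1, 183.7, 0.14), and the last 2 each had 1 KO peak.

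**Figure D3:**
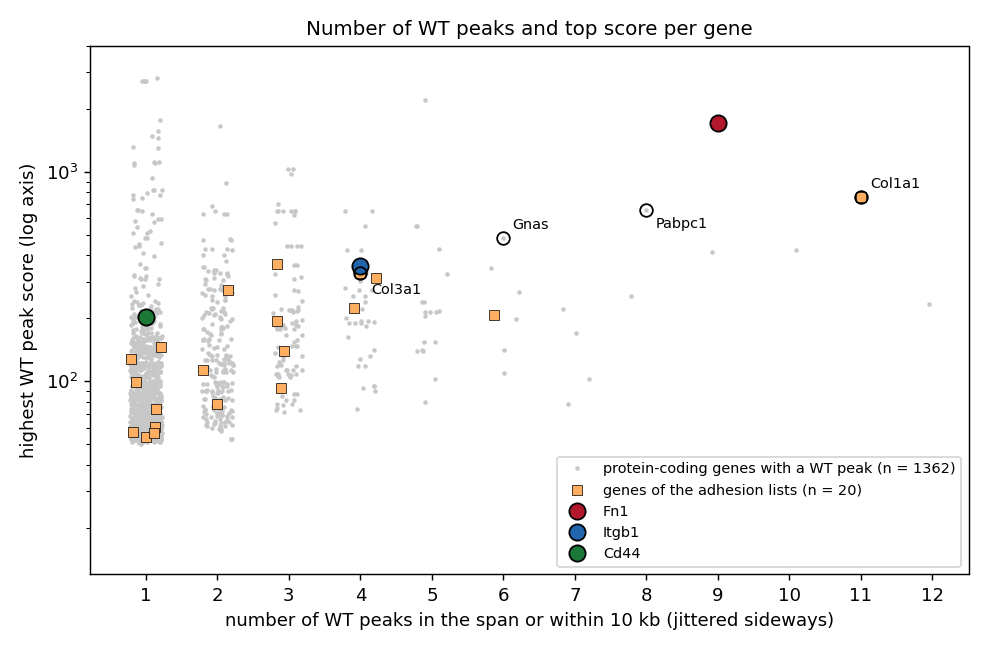
Number of WT peaks per protein-coding gene (x axis, jittered sideways) and the gene's highest WT score (log y axis), with 1 point per gene for the 1362 genes with a WT peak. Fn1 stands at 9 peaks and 1720, and of the genes with 4 or more peaks Myo3a (5 peaks, 2205) alone has a higher score, while Itgb1 overlies the place of Col3a1 and Cd44 lies in the upper part of the genes with 1 peak; squares are genes of the adhesion lists.

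Other genes of fibronectin adhesion were read from 5 lists of 65 genes without the 3 above. WT peaks were found at 20 of the 65 (30.8%) and KO peaks at 2 (3.08%), beside 6.22% and 2.34% of all protein-coding genes. The listed genes are longer, with a median span of 44.6 kb against 17.2 kb. Within the class of 30 to 100 kb, 9 of 25 listed genes (36.0%) had a WT peak, beside 7.17% of all genes of that class. For 16 of the 20 at least 1 WT peak was inside the listed gene itself. Several listed matrix and focal adhesion genes were already known to carry WT peaks when the lists were written, so the shares are descriptions.

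Of 12 further subunits of fibronectin-binding integrins, WT peaks were called at 2 (16.7%, beside 6.22% of all protein-coding genes) and KO peaks at 0. They were Itgb5, an integrin beta chain that pairs with the alpha v chain (score 127.4), and Itga9, an alpha chain that pairs with beta 1 (57.3). Itga5, the partner of Itgb1 in the main fibronectin receptor, was among the 10 with no peak in either list, and is named after its values were seen. Of 6 other alpha chains that pair with beta 1, 1 carried WT peaks (16.7%). This was Itga11, a collagen receptor chain, with 2 WT peaks (77.7 and 73.5). Itga6, a laminin receptor chain, had 1 KO peak (57.3) and no WT peak.

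The syndecans, surface proteoglycans that bind fibronectin, had no peak in either list at any of 4 genes. In their list of 14, which also holds the hyaluronan system around CD44, WT peaks were called at 3 genes (21.4%) and KO peaks at 0. Among all protein-coding genes the shares were 6.22% and 2.34%. With the span alone, 1 of the 14 had a WT peak, beside 3.79% of all genes. Msn, which encodes moesin, a protein linking CD44 to actin, had 3 WT peaks of scores 363.6, 276.4 and 196.7 in its own span. The peaks counted for Ezr (73.7) and for the hyaluronan synthase gene Has3 (54.3) lay 7.72 and 3.55 kb from those genes, in Sytl3 and in Chtf8 and Derpc.

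Matrix partners of fibronectin carried WT peaks at 7 of 13 genes, the largest share of the 5 lists (53.8%), and a KO peak at 1 (7.69%). Several matrix and focal adhesion genes were known to carry WT peaks when the lists were written, so the order of the lists is a description. Among all protein-coding genes the shares were 6.22% and 2.34%. All 7 had a WT peak inside their own span. The top WT scores were 763.6 in Col1a1, 330.9 in Col3a1, 311.5 in Thbs1 and 194.1 in Col5a1, which encode collagen chains and thrombospondin 1. Tnc, Fbln1 and Fbn1 had top scores of 113.2, 99.3 and 60.4. The KO peak was in Col5a1 and scored 52.0.

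Focal adhesion genes, whose proteins join integrins to actin, had WT peaks at 7 of 20 (35.0%) and KO peaks at 0. Among all protein-coding genes the shares were 6.22% and 2.34%. With the span alone, 5 of the 20 had a WT peak, beside 3.79% of all genes. The actin crosslinkers Actn1 and Actn4 had 6 and 4 WT peaks with top scores of 207.4 and 224.6. Vcl, the gene of vinculin, had 3 with a top score of 139.1, the filamin gene Flna had 3 with a top score of 92.8, and the integrin-linked kinase gene Ilk had 1 (56.7). The peaks counted for Tln1 (top score 272.9) and Pxn (146.2) lay outside these genes, in Tpm2 and Rplp0.

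**Figure D4:**
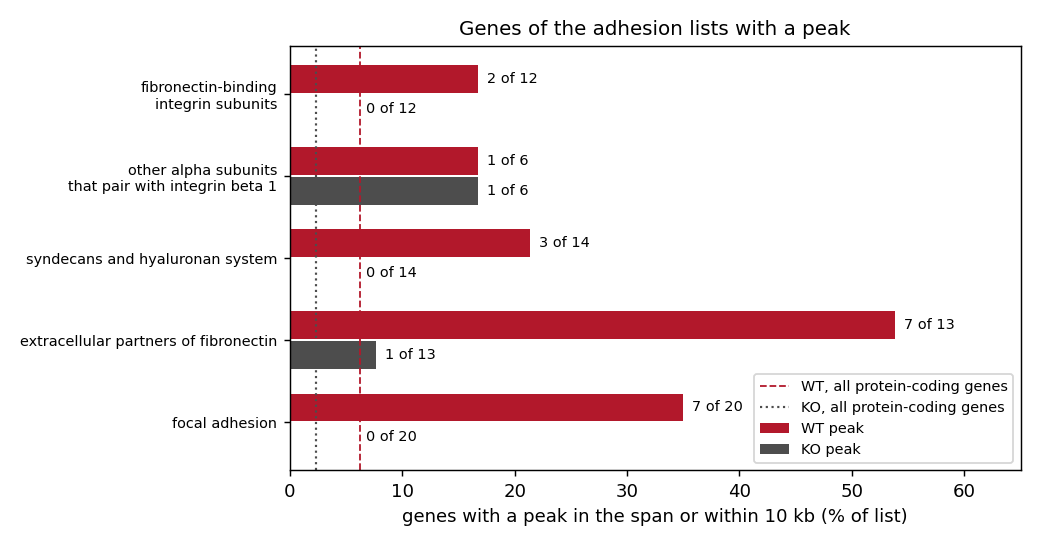
Share of genes with a WT peak (red bars) or a KO peak (dark bars) in each of the 5 adhesion lists, in % of the list, with the counts beside the bars. The dashed and dotted lines are the shares over all protein-coding genes, 6.22% for WT and 2.34% for KO. The WT bars run from 16.7% for integrin chains to 53.8% for matrix partners of fibronectin. Several matrix and focal adhesion genes were known to carry WT peaks when the lists were written, so the order of the bars is a description.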

How the data were processed

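KLF4 ChIP-seq was deposited as 1 peak list per library, WT and KO, in mouse build mm10. Bowtie 1.0 and SAMtools 0.1.18 were used, per the submitters' processing notes, and the peak names show that the authors called peaks with MACS. Its version, settings and control were not given in the sources used here. Each deposited score was taken as 10 times the negative log10 of a p-value, as older MACS versions write it, so that the lowest WT score, 50, is 1e-05. Starts were made 1-based. Depth is unknown, and where no peak is listed a site may still be bound.

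Gene spans came from RefSeq GRCm38.p6, which has mm10 coordinates. All 3 genes and the 65 listed genes were found. Sequence under the peaks was not analysed here. The genes and lists were chosen with earlier results of these data known. Named genes are the 3 genes, those most like each, and listed genes with a peak (in lists with over 5 such genes, the 4 with the highest scores). The other listed genes with a peak, named to complete the counts, and Itga5 fall outside this rule and were named after their values were seen. With 1 library per group no test was made. Counting was checked on simulated peaks. Alternatives covered the window, placement, score limit, list size and overlap. Software was Python 3.11.15 with numpy 2.4.6, with pandas 2.3.3 and scipy 1.17.1, and with matplotlib 3.10.9 for figures.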

Additional observations from a re-analysis of the deposited data

How the results depend on the processing

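The counts for Fn1 (9) and Cd44 (1) and the 0 KO peaks at the 3 genes were the same with the span alone, the span plus 2500 bp, any overlap in place of the midpoint, and after leaving out peaks on pseudogenes, which was added after seeing the data. With each list limited to scores at or above its median, or with the WT list cut to the KO list's 1153 peaks, Fn1 kept 7 peaks, Itgb1 2 of 4 and Cd44 1. No WT peak of the 3 genes overlapped a KO peak by 1 bp, by 50% reciprocal overlap or within 1 kb. The nearest KO peak lay 599.7 to 2952.9 kb from these WT peaks. None of the settings could therefore have given another KO count or overlap at the 3 genes. At large, 1206 of the 1362 protein-coding genes with a WT peak had no KO peak. Listed adhesion genes with a WT peak numbered 20 of 65, 16 with the span alone (24.6%, beside 3.79% of all genes) and 14 with either score limit (21.5%, beside 3.5% or 3.52%). No paired analysis was possible because each group holds 1 library, and no replicate could be left out. Weak sites in KO cannot be told from a lower depth.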

Other observations

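Markers of the cell types present in such tissue were read by the same rule, by which 6.22% of all protein-coding genes had a WT peak. Of 6 smooth muscle markers, 2 had one (33.3%), Acta2 (score 59.6) and Tagln (67.5), the latter at a place that is also in the span of Pcsk7. Of 6 macrophage markers, 2 had a WT peak within 10 kb (33.3%), but these lay in Eif4a1 near Cd68 and in the pseudogene Gm45700 near Itgam. Of 5 endothelial markers 0 had a WT peak, of 5 epithelial markers 1 (20%, Krt14, score 68.3), and of 5 fibroblast markers 1 (20%), for Pi16, whose peak lay 7.33 kb away in Mtch1. No marker in these lists had a KO peak. Peaks measure no expression, so the cell makeup of the tissue was not tested.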
